A study of Mus musculus with 12 samples.

Results

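The comparison concerns dendritic cells (DCs) from the spleens of mice that lack the microRNA miR-142 (KO) and of wild-type littermates (WT), all given lipopolysaccharide (LPS). It held the 3 KO LPS arrays and the 3 WT LPS arrays, 6 of the 12 Affymetrix arrays of the series, and took in every gene the arrays name, 17097 in all. The arrays were picked by genotype and stimulation in their titles, with no measured value used. The other 6 arrays held unstimulated DCs of the same genotypes, 3 each, and entered the estimate of spread. All mice were 10-week-old males on the C57BL/6 background, and each array held DCs taken from an individual spleen by positive selection; the selection marker is not stated. The knockout is named only as miR-142 KO, so whether the gene was missing from all cells or from some, and how the allele was made, is not stated, nor are the dose, duration and setting of the LPS treatment. The WT mice were littermates of the KO mice. The sample descriptions call the cells T cells while the titles, sources and cell type field call them DCs.

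miR-142 is made in blood cells and is among the abundant microRNAs of leukocytes. A microRNA guides a silencing complex to messenger RNAs that pair with its seed, bases 2 to 8, and pairing lowers their level or translation, so loss of a microRNA can raise its direct targets. LPS, a component of the outer membrane of Gram-negative bacteria, binds TLR4 with its partner MD-2 and sets off NF-kB and interferon regulatory factors, and DCs answer with cytokines, co-stimulatory proteins and antigen presentation. The Mir142 hairpin lies on mouse chromosome 11 at chr11:87756864-87756927 (GRCm38.p6, plus strand, RefSeq) and yields a mature microRNA from each arm. Both are shown because they are the molecules missing in the KO, with the seed in capitals.
mmu-miR-142a-5p: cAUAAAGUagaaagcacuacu
mmu-miR-142a-3p: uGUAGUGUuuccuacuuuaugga
The arms have different seeds, so they pair with different sites, ACUUUAU for the 5p arm and ACACUAC for the 3p arm when the site is read 5′ to 3′. Target transcripts were not searched for these sites here. No probe set carried the symbol of Mir142 alone, and neither neighbouring protein gene, Supt4a or Tspoap1, was among the 17097 genes, so the genotype labels could not be checked on the locus.

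Markers of DCs were present on the 6 LPS arrays. Itgax, which encodes CD11c, had log2 signals of 6.86, 7.03 and 7.17 in WT and 7.07, 6.69 and 7.32 in KO, against a median gene mean of 3.14, and Zbtb46, a transcription factor of conventional DCs, had 6.96, 7.03 and 7.39 in WT and 6.82, 5.94 and 6.81 in KO. Among T cell receptor complex genes Cd3e had 3.89, 4.37 and 3.42 in WT and 3.48, 3.92 and 4.50 in KO, nearer the median gene. KO LPS array 2 stood apart from the other 11 arrays. Its gap between the 3′ end and the middle of Gapdh was 3.04 log2 units, against 1.53 to 1.86 on the others, and 1000 genes (5.85%) lay over 1 log2 unit from the mean of KO LPS arrays 1 and 3. Those 2 arrays differed from each other by that much at 131 genes. Results are therefore given with all arrays and, where it matters, without KO LPS array 2.

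With all arrays 76 of the 17097 genes passed (0.445%) at a Benjamini-Hochberg adjusted p under 0.05 in limma, 47 higher in KO (0.275%) and 29 lower (0.17%). The 3 KO arrays lay wholly above or wholly below the 3 WT arrays for all 76. Among all genes they lay wholly above for 6.92% and wholly below for 10.2%. The 76 were picked by a test on these same arrays, so their separation is not separate support. Of the 47 higher genes 33 rose by more than 1 log2 unit, and 9 of the 29 lower genes fell by more than that. The largest rises were in neutrophil granule and natural killer (NK) cell genes and the largest falls in antibody chain genes. The smallest change called was 0.58 log2 units. Without KO LPS array 2 the count was 91 (0.532%), of which 60 were among the 76. All 76 kept their sign, which was fixed beforehand because their KO and WT arrays did not overlap.

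The count leaned on single arrays. Dropping WT LPS array 1, 2 or 3 left 3, 2 and 6 genes, dropping KO LPS array 3 gave 358, and dropping WT unstimulated array 2 gave 42. Klra8 and Klra9 were the 2 genes that passed whichever of the 12 arrays was left out. A fit to the 6 LPS arrays alone called 0 genes in limma, with 1637 at an unadjusted p under 0.05, while the same fit without KO LPS array 2 called 49. With all 12 arrays 2359 genes (13.8%) had an unadjusted p under 0.05.

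**Figure D1:**
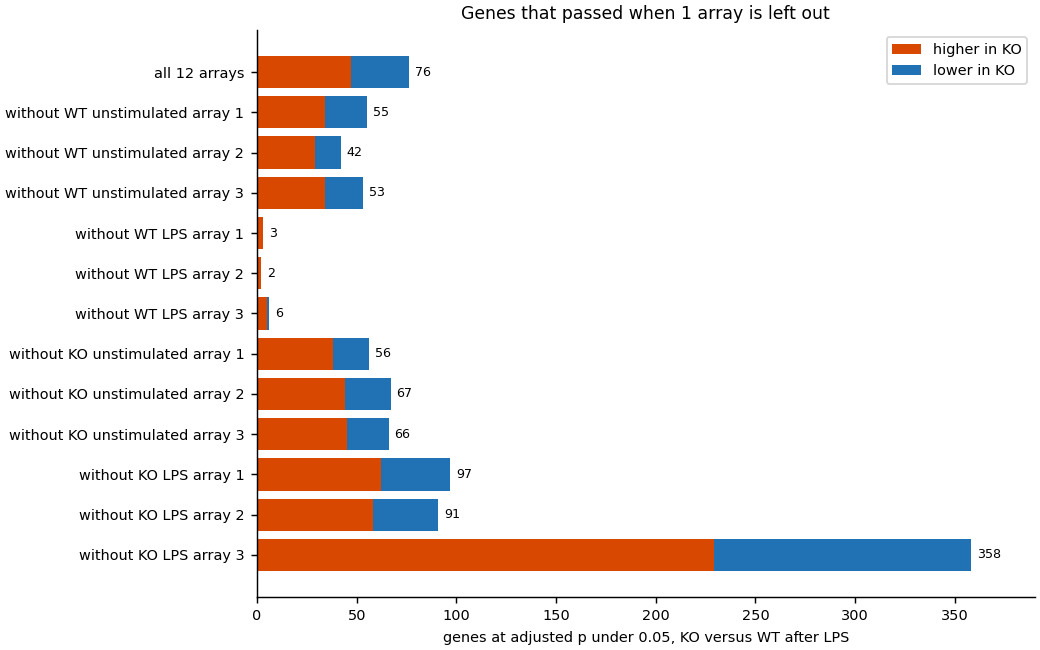
Genes at an adjusted p under 0.05 in KO versus WT after LPS (horizontal axis, bars split into higher and lower in KO), for the fit to all 12 arrays and for fits without 1 array each. The count is 76 with all arrays, 2 to 6 when a WT LPS array is left out, and 358 when KO LPS array 3 is.

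Neutrophil genes were the largest rises. Camp, which encodes the antimicrobial peptide cathelicidin, had log2 signals of 4.97, 4.25 and 3.56 in the WT LPS arrays and 9.83, 9.95 and 7.49 in the KO LPS arrays. KO array 3 was the lowest of the KO arrays and still lay above every WT array. The rise was 4.83 ± 0.76 (log2 difference between 3 arrays of each genotype ± SE, adjusted p = 0.0215 in limma). Each SE rests on the spread that limma estimated over all arrays in the fit, unstimulated ones included. Ngp, which encodes neutrophilic granule protein, had 4.59, 4.11 and 2.80 in WT and 9.48, 9.13 and 7.26 in KO, a rise of 4.79 ± 0.75 (adjusted p = 0.0215). Lcn2, whose product lipocalin 2 binds bacterial siderophores, had 3.95, 4.33 and 2.33 in WT and 9.40, 8.55 and 6.67 in KO. Lcn2 rose by 4.67 ± 0.83 (adjusted p = 0.0322), and did not pass without KO LPS array 2 (adjusted p = 0.0526). The chitinase-like genes Chil3 and Chil4 rose by 4.84 ± 0.77 (adjusted p = 0.0216) and 3.59 ± 0.69 (adjusted p = 0.0462), and Chil4 too did not pass without that array (adjusted p = 0.0749). The rise of Chil4 was seen on the brighter of its 2 probe sets. The other was dim and differed by 0.14, or by −0.03 without KO LPS array 2.

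Of 26 measured genes of the neutrophil list 4 passed, all higher, against 0.275% of all genes that passed as higher. The KO arrays lay wholly above the WT arrays for 20 of the 26, against 6.92% of all genes, and the median difference was 2.41, against −0.03 over all genes. S100a8, a subunit of calprotectin, had 7.87, 7.95 and 4.90 in WT and 10.54, 10.76 and 9.26 in KO (difference 3.28 ± 0.82, not past the threshold at adjusted p = 0.119). WT array 3 was far under the other WT arrays. The mean log2 signal of the whole list was 3.91, 3.93 and 3.35 on the WT LPS arrays and 6.75, 6.94 and 4.80 on the KO LPS arrays. KO array 3 was thus the lowest of the KO arrays for the list, and it is the array whose removal gave 358 calls. In bulk RNA from a spleen selection, more cells of a type and more RNA per cell cannot be told apart, here and for the groups that follow.

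Several NK cell genes rose. Klra8, which encodes the activating Ly49H receptor, had 3.65, 3.37 and 2.13 in WT and 6.59, 7.16 and 6.86 in KO. Its KO values lay close together and well above every WT array, with a rise of 3.82 ± 0.36 (limma adjusted p = 0.00137). Klra9 had 5.40, 4.77 and 4.24 in WT and 7.49, 7.88 and 7.50 in KO, a rise of 2.82 ± 0.26 (adjusted p = 0.00137). Klra genes are close copies of each other, so their probe sets may share signal. Klrb1b, which encodes an inhibitory NKR-P1 receptor, rose from 4.78, 4.34 and 4.08 to 5.87, 5.70 and 5.68, by 1.35 ± 0.15 (adjusted p = 0.0064), and it passed in 11 of the 12 fits that left out an array. Its relative Klrb1f rose by 1.17 ± 0.19 (adjusted p = 0.0215). Gzmb, which encodes the cytotoxic protease granzyme B, rose by 2.12 ± 0.32 (adjusted p = 0.0215), and Ctsw, cathepsin W of cytotoxic cells, by 1.51 ± 0.26 (adjusted p = 0.0254). Eomes, a transcription factor of NK cells, had 2.99, 3.02 and 2.78 in WT and 3.96, 4.58 and 5.01 in KO, a rise of 1.59 ± 0.25 (adjusted p = 0.0215).

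Of 35 measured NK list members 5 passed, all higher (0.275% of all genes passed as higher). KO arrays lay wholly above WT for 22 members (6.92% of all genes), and the median was 0.69. Il2rb, the beta chain of the interleukin 2 and 15 receptors, missed the threshold (1.80 ± 0.35, adjusted p = 0.0513), as did Gzma, which encodes granzyme A (2.81 ± 0.56, adjusted p = 0.054), and Fasl (1.28 ± 0.26, adjusted p = 0.0544). The list mean was 3.36 to 3.73 on the WT LPS arrays and 4.30 to 4.51 on the KO LPS arrays. Cst7, which encodes the protease inhibitor cystatin F, rose by 0.77 ± 0.13 (adjusted p = 0.0261). Both list means were thus higher on all 3 KO LPS arrays than on any WT LPS array, and their part in the differences of the genes that follow was not tested.

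**Figure D2:**
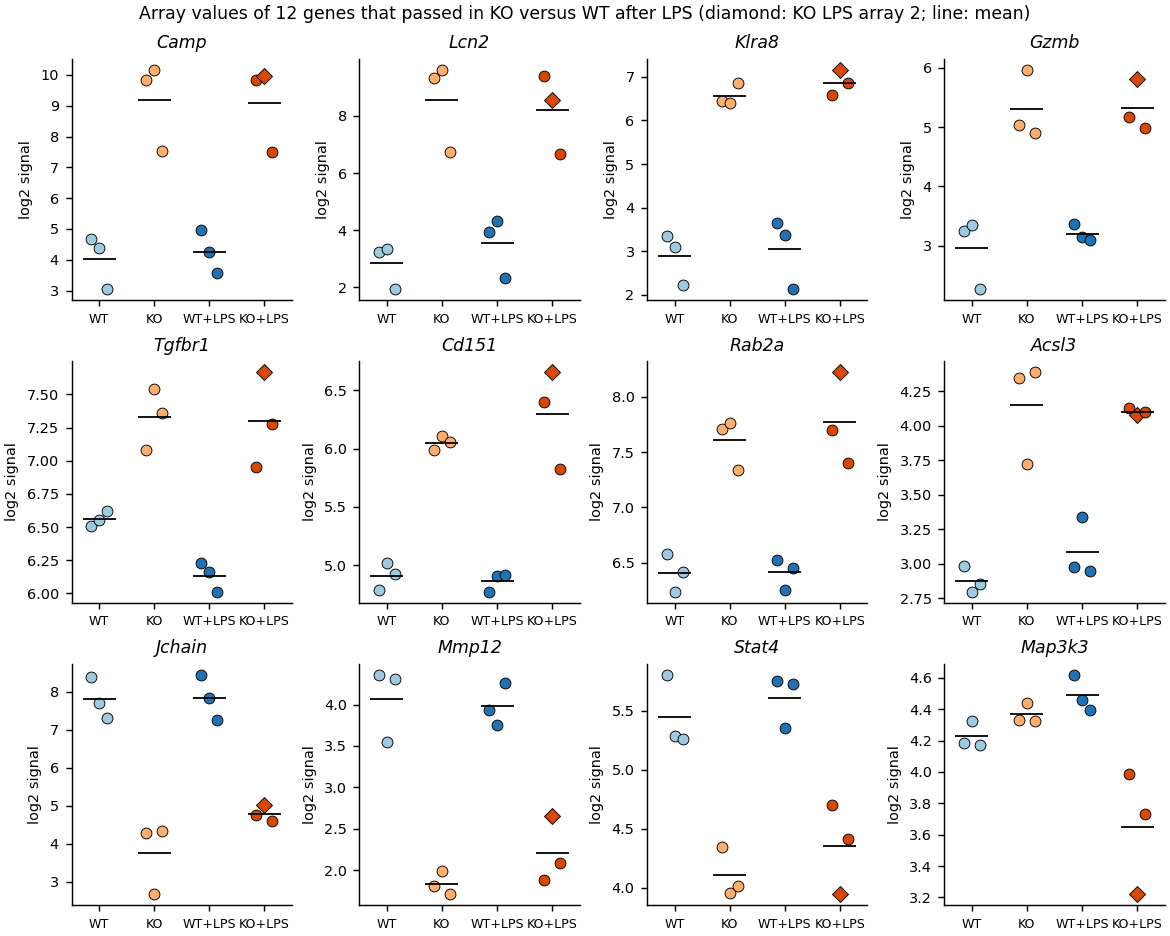
Log2 signals of 12 genes that passed after LPS (vertical axes), by array in unstimulated and LPS-treated WT and KO, with the mean of each group as a line and KO LPS array 2 as a diamond. Each gene is shown by its probe set of highest mean. After LPS the KO arrays of each gene lie wholly on one side of the WT arrays, as for Tgfbr1, with KO arrays reading 6.95, 7.66 and 7.28 and WT arrays 6.23, 6.16 and 6.01.

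The 3 largest falls were in antibody genes. Jchain, the joining chain of IgA and IgM polymers made by plasma cells, had 8.44, 7.82 and 7.26 in WT and 4.75, 5.02 and 4.60 in KO. All KO arrays lay far under the lowest WT array, and Jchain fell by 3.05 ± 0.42 (adjusted p = 0.017). The lambda light chain gene Iglv1 had 7.44, 6.92 and 6.79 in WT and 5.19, 3.46 and 5.31 in KO and fell by 2.39 ± 0.41 (adjusted p = 0.026). A kappa variable gene of the Igkv19 family had 7.85, 6.89 and 6.54 in WT and 5.22, 4.19 and 5.37 in KO and fell by 2.16 ± 0.41 (adjusted p = 0.0436). KO LPS array 2 was the lowest for both light chain genes, and without it the differences were −1.79 ± 0.25 (adjusted p = 0.0112) and −1.79 ± 0.39 (adjusted p = 0.0745). Another kappa variable gene, of the Igkv14 family and not on the list, had 5.30, 5.18 and 4.32 in WT and 6.61, 3.60 and 6.73 in KO. KO arrays 1 and 3 lay above WT and array 2 below, and its difference of 0.71 ± 0.71 did not pass (adjusted p = 0.698), nor did that of 1.74 ± 0.46 without array 2 (adjusted p = 0.164). Variable gene probe sets can pick up related segments. Of 14 measured members of the plasma cell and immunoglobulin list, Jchain, Iglv1 and the Igkv19 gene passed (0.17% of all genes passed as lower). On that list 12 differences were negative and 2 positive, and 6 members had KO arrays wholly below WT (10.2% of all genes). The list mean was 5.01 to 5.32 on WT LPS arrays and 4.22 to 4.64 on KO LPS arrays. The median difference of the list was −0.17, against −0.03 over all genes, far smaller than the falls of the members that passed. The plasma cell regulators Xbp1 (−0.39 ± 0.14, adjusted p = 0.261) and Prdm1 (−0.35 ± 0.14, adjusted p = 0.299) did not pass.

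Among B cell genes 1 of 21 measured passed. Tnfrsf13c, which encodes the BAFF receptor, had 6.79, 6.87 and 6.82 in WT and 7.50, 7.53 and 7.85 in KO and rose by 0.80 ± 0.14 (adjusted p = 0.026). Ms4a1, which encodes CD20, had 5.82, 6.18 and 5.79 in WT and 6.98, 6.69 and 7.02 in KO (difference 0.97 ± 0.21, adjusted p = 0.0771). Cd79a, which encodes a signalling chain of the B cell receptor, was low on KO LPS array 2. Its values were 6.44, 6.77 and 6.44 in WT and 6.62, 4.48 and 7.15 in KO, and the difference was −0.46 ± 0.49 with that array and 0.34 ± 0.20 without it (adjusted p = 0.717 and 0.664). Of the T cell list 0 of 22 measured members passed in limma, with 6 at an unadjusted p under 0.05, against 13.8% of all genes. The list median of −0.17 became −0.07 without that array.

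Tgfbr1, which encodes the type I TGF-beta receptor, was the leading gene of the TGF-beta list. It had 6.23, 6.16 and 6.01 in WT and 6.95, 7.66 and 7.28 in KO, with no overlap, and rose by 1.16 ± 0.17 (adjusted p = 0.0195, 2.24-fold). Without KO LPS array 2 the rise was 0.98 ± 0.15 (adjusted p = 0.0138). These values are of the brightest of 3 Tgfbr1 probe sets. The others rose by 0.12 and 0.48, and each by 0.54 without array 2. On the probe set that rose by 0.12, array 2 read 5.07, under every WT array (5.88, 5.66 and 5.87). Id3, an inhibitor of E protein transcription factors that TGF-beta family signals induce, had 4.40, 4.73 and 4.40 in WT and 5.38, 5.07 and 5.50 in KO and rose by 0.81 ± 0.15 (adjusted p = 0.0426). Those were the 2 members to pass of 31 measured, against 0.275% of all genes that passed as higher. KO arrays lay wholly above WT for 4 members (6.92% of all genes) and wholly below for 2 (10.2%). The activin receptor gene Acvr2a (0.82 ± 0.21, adjusted p = 0.136), the BMP receptor gene Bmpr2 (0.63 ± 0.22, adjusted p = 0.235, or 0.32 ± 0.14 when KO LPS array 2 was dropped) and the signal transducer Smad2 (−0.36 ± 0.10, adjusted p = 0.168) did not pass.

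Of 43 measured proposed miR-142 targets 3 passed, all higher (0.275% of all genes passed as higher). KO arrays lay wholly above WT for 11, against 6.92% of all genes, and the list median was 0.12. The list was written with earlier results of these data known, among them the rises of Tgfbr1 and Acsl3, so it is not independent evidence of a direction. Gfi1, a transcriptional repressor of myeloid and lymphoid cells, had 3.42, 3.67 and 3.44 in WT and 4.91, 4.43 and 5.26 in KO and rose by 1.36 ± 0.25 (adjusted p = 0.042). Acsl3, which activates long-chain fatty acids, had 2.98, 3.34 and 2.95 in WT and 4.13, 4.08 and 4.10 in KO and rose by 1.01 ± 0.17 (adjusted p = 0.024). Wasl, which encodes the actin regulator N-WASP, had 4.94, 5.05 and 5.20 in WT and 5.52, 6.97 and 5.86 in KO, KO LPS array 2 being the highest, and did not pass (1.05 ± 0.27, adjusted p = 0.132, and 0.63 ± 0.13, adjusted p = 0.0725, without it). Bod1, a chromosome alignment gene, had KO LPS array 2 nearest to WT, with 4.20, 4.27 and 4.12 in WT and 4.93, 4.28 and 5.09 in KO. It did not pass with array 2 (adjusted p = 0.189) and passed without it (0.81 ± 0.12, adjusted p = 0.0138). E2f7, a cell cycle repressor gene, was dimmer than the median gene, with 1.94, 1.90 and 1.94 in WT and 2.03, 2.13 and 1.74 in KO. It differed by 0.041 ± 0.13 (adjusted p = 0.917), a value that turned to −0.042 ± 0.13 without KO LPS array 2. Its relative E2f8 had 3.07, 2.50 and 2.36 in WT and 2.79, 4.88 and 3.03 in KO, array 2 far above the rest, and missed the threshold at 0.92 ± 0.44 (adjusted p = 0.376), or 0.27 ± 0.26 without array 2.

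Cd151, Rab2a, Clta, Ctnnb1, Ppp3ca and Golm1 belonged to no list, and were picked from the 47 higher genes after their values were seen. Cd151, a tetraspanin that partners laminin-binding integrins, had 4.77, 4.91 and 4.92 in WT and 6.40, 6.65 and 5.83 in KO. The WT arrays lay close together, and the rise was 1.43 ± 0.17 (adjusted p = 0.00757, 2.69-fold). It passed in 10 of the 12 fits that left out an array. Rab2a, a small GTPase between endoplasmic reticulum and Golgi, had 6.53, 6.26 and 6.46 in WT and 7.70, 8.22 and 7.40 in KO and rose by 1.36 ± 0.19 (adjusted p = 0.0175, 2.56-fold). Clta, clathrin light chain A, had 8.94, 8.91 and 8.76 in WT and 9.37, 9.65 and 9.53 in KO, a rise of 0.64 ± 0.11 (adjusted p = 0.024). Ctnnb1, which encodes the adhesion and Wnt pathway protein beta-catenin, had 7.68, 7.76 and 7.71 in WT and 8.24, 8.36 and 8.31 in KO, and its rise of 0.58 ± 0.09 was the smallest called (adjusted p = 0.0215). Ppp3ca, a catalytic subunit of the phosphatase calcineurin, rose by 0.83 ± 0.14 (adjusted p = 0.0242), and Golm1, a Golgi membrane protein gene, by 0.84 ± 0.14 (adjusted p = 0.024).

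Pmp22, a tetraspan membrane protein gene, had 2.75, 1.93 and 2.40 in WT and 4.02, 4.58 and 4.47 in KO and rose by 2.0 ± 0.29 (adjusted p = 0.0201). Serpinb2, a plasminogen activator inhibitor gene, was dim in WT (1.35, 1.22 and 1.04) and brighter in KO (4.10, 2.96 and 2.55), a rise of 2.0 ± 0.36 (adjusted p = 0.0336). Ipcef1, whose product interacts with cytohesins, had 3.39, 3.63 and 3.06 in WT and 5.08, 5.68 and 4.74 in KO, a rise of 1.80 ± 0.26 (adjusted p = 0.0201). Lztfl1, a regulator of ciliary trafficking, rose by 1.51 ± 0.20 (adjusted p = 0.0168). Abtb2 and Fam8a1 rose by 1.74 ± 0.31 (adjusted p = 0.0336) and 1.66 ± 0.31 (adjusted p = 0.042). KO LPS array 2 was the highest array for both, and without it Fam8a1 rose by 1.16 ± 0.13 (adjusted p = 0.00336). Cdk5r1, which encodes the p35 activator of the kinase CDK5, rose by 0.98 ± 0.16 (adjusted p = 0.024), and the DNA repair scaffold gene Xrcc1 by 1.13 ± 0.21 (adjusted p = 0.0376). Lztfl1, Cdk5r1, Xrcc1 and, among the NK genes, Klrb1f were also chosen after their values were seen, as was Pmaip1 among the falls.

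Falls outside the antibody genes were led by Mmp12, which encodes macrophage elastase. It had 3.93, 3.75 and 4.26 in WT and 1.89, 2.66 and 2.08 in KO and fell by 1.77 ± 0.24 (adjusted p = 0.0168), and was the 1 member of 22 measured on the red pulp macrophage list to pass. Ehf, an ETS family transcription factor gene, had 4.60, 3.90 and 4.45 in WT and 2.69, 2.05 and 2.97 in KO and fell by 1.74 ± 0.27 (adjusted p = 0.0215). Stat4, which carries interleukin 12 and type I interferon signals, had 5.75, 5.35 and 5.73 in WT and 4.70, 3.95 and 4.41 in KO and fell by 1.26 ± 0.21 (adjusted p = 0.024). Mab21l3 (4.31, 4.05 and 3.96 in WT, 2.87, 3.48 and 2.96 in KO) fell by 1.0 ± 0.17 (adjusted p = 0.0261), and Pid1, a gene linked to insulin signalling, by 1.0 ± 0.15 (adjusted p = 0.0215). The nucleosome-binding gene Hmgn3 fell by 1.20 ± 0.19 (adjusted p = 0.0215) and Rtl8c by 1.15 ± 0.19 (adjusted p = 0.0254), both to KO means under the median gene. Smaller falls were those of Nudt9, an ADP-ribose hydrolase gene (−0.92 ± 0.16, adjusted p = 0.0261), the beta-tubulin gene Tubb5 (−0.91 ± 0.16, adjusted p = 0.0298) and the annexin gene Anxa6 (−0.86 ± 0.17, adjusted p = 0.0482). Map3k3, which encodes the MAP kinase kinase kinase MEKK3, fell from 4.62, 4.46 and 4.40 to 3.98, 3.22 and 3.73, by 0.85 ± 0.16 (adjusted p = 0.0436). The F-box gene Fbxl12 (−0.82 ± 0.12, adjusted p = 0.0215), the pro-apoptotic gene Pmaip1, which encodes NOXA (−0.62 ± 0.10, adjusted p = 0.0224), and Wipf1, a partner of the actin regulator WASP (−0.76 ± 0.14, adjusted p = 0.0436), also fell. Without KO LPS array 2 the falls of Anxa6 (adjusted p = 0.0595) and Wipf1 (adjusted p = 0.0779) did not pass. Wipf1 was the 1 gene of 35 measured on the actin cytoskeleton list to pass.

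Genes that define DC subsets mostly did not pass, though their list means were lower on the KO LPS arrays. Xcr1, the chemokine receptor of cross-presenting cDC1 cells, had 4.19, 4.12 and 4.16 in WT and 3.55, 3.20 and 3.39 in KO and fell by 0.78 ± 0.15 (adjusted p = 0.0494), but not without KO LPS array 2 (adjusted p = 0.1). It was the 1 member of 24 measured on the cDC1 list to pass, and 6 members had KO arrays wholly below WT, against 10.2% of all genes. Wdfy4, needed for cross-presentation, had 7.21, 7.46 and 7.25 in WT and 6.71, 6.89 and 6.83 in KO and missed the threshold (−0.50 ± 0.10, adjusted p = 0.054). The cDC2 list had 0 of 24 measured members past the threshold in limma (8 at an unadjusted p under 0.05, against 13.8% of all genes). Its median was −0.09. The plasmacytoid DC list had 0 of 20 (5 unadjusted) and a median of −0.07. For the cDC2 receptor gene Sirpa the values were 7.52, 7.72 and 7.38 in WT and 6.91, 6.56 and 7.30 in KO (−0.62 ± 0.19, adjusted p = 0.194). The cDC1 list mean was 5.15 to 5.28 on WT LPS arrays and 5.02 to 5.07 on KO LPS arrays. It was 5.15 to 5.22 and 4.76 to 5.13 for cDC2. For plasmacytoid DCs it was 4.62 to 4.67 and 4.54 to 4.61, a narrow separation. On the cDC1 list 20 differences were negative and 4 positive.

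Of 31 measured activation and migration genes Stat4 fell, Cst7 rose and 29 did not pass, with a median of −0.22 that became −0.09 without KO LPS array 2. Cd86, a co-stimulatory ligand of CD28, had 8.25, 8.08 and 8.25 in WT and 7.85, 7.13 and 7.90 in KO. Every KO array was lower, array 2 most of all, and the difference of −0.56 ± 0.19 did not pass (adjusted p = 0.232) and was −0.32 ± 0.14 without that array. Its companion Cd80 had 6.72, 6.53 and 7.01 in WT and 6.23, 4.71 and 6.09 in KO (difference −1.07 ± 0.33, adjusted p = 0.194, and −0.59 ± 0.20 without array 2). The chemokine gene Ccl22, a marker of matured DCs, had 7.37, 7.43 and 7.84 in WT and 6.14, 6.12 and 7.15 in KO (−1.07 ± 0.33, adjusted p = 0.189). MHC class I presentation genes had 0 of 22 past the threshold (9 at an unadjusted p under 0.05, against 13.8% of all genes). Their median was −0.28 with all arrays and −0.10 without array 2. MHC class II presentation genes had 0 of 20 (3 unadjusted), with medians of −0.09 and −0.01. The list means of MHC class I were 6.13 to 6.25 on WT LPS arrays, 6.10 and 6.18 on KO LPS arrays 1 and 3, and 5.70 on KO LPS array 2.

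**Figure D3:**
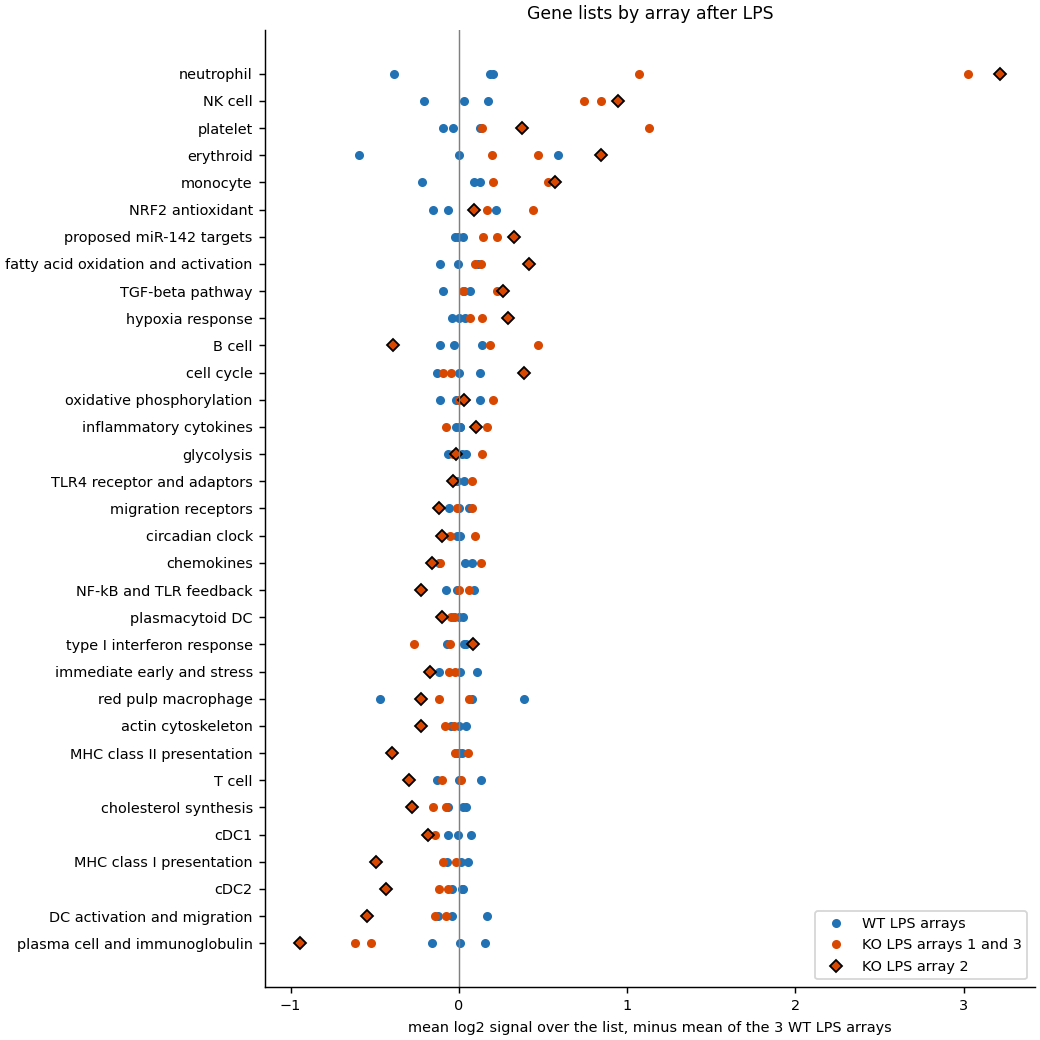
Mean log2 signal of each gene list on each LPS array, minus the mean of the 3 WT LPS arrays (horizontal axis), for WT arrays, KO arrays 1 and 3, and KO array 2 as a diamond. The neutrophil list lies above WT on every KO array, while the MHC class I list is low on KO array 2, at 5.70 before subtraction.

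None of the cytokine genes Il6, Il12a, Il12b, Tnf and Ifnb1 passed after LPS. Il6 had 4.78, 4.23 and 4.55 in WT and 5.31, 6.18 and 4.56 in KO, KO array 3 lying within the WT range, and its difference of 0.83 ± 0.31 (adjusted p = 0.271) was 0.41 ± 0.22 without KO LPS array 2. Il12b, the p40 subunit shared by interleukins 12 and 23, had 7.43, 7.67 and 7.44 in WT and 7.27, 6.75 and 7.32 in KO, every KO array lower, with a difference of −0.40 ± 0.16 (95% confidence interval −0.74 to −0.058, adjusted p = 0.296) that was −0.21 ± 0.13 without KO LPS array 2. Il12a, the p35 subunit, had 2.77, 3.38 and 3.22 in WT and 3.45, 2.76 and 3.08 in KO, with both group means under the median gene. It differed by −0.024 ± 0.21 (95% confidence interval −0.48 to 0.43, adjusted p = 0.974), and by 0.15 ± 0.21 without KO LPS array 2. Tnf had 7.83, 7.85 and 8.07 in WT and 7.79, 7.57 and 7.66 in KO, a difference of −0.24 ± 0.17 (95% confidence interval −0.62 to 0.13, adjusted p = 0.554). Ifnb1, which encodes interferon beta, had 4.44, 4.0 and 4.67 in WT and 3.79, 3.76 and 3.13 in KO, all KO arrays lower, and did not pass (−0.81 ± 0.23, adjusted p = 0.169). These intervals are not adjusted for the number of genes, and a p above the threshold does not show equal levels.

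Of 26 measured inflammatory cytokine genes 1 passed, the growth factor gene Vegfa. Of 26 chemokine genes 0 passed, while 13 (50%) had an unadjusted p under 0.05, against 13.8% of all genes. The interferon-induced chemokine gene Cxcl10 had 8.11, 8.16 and 8.17 in WT and 7.16, 6.54 and 7.28 in KO. All KO arrays were lower, and the difference of −1.16 ± 0.28 did not pass (adjusted p = 0.102). Ccl4, which draws monocytes and T cells, had 9.48, 9.30 and 9.47 in WT and 8.66, 7.88 and 8.75 in KO (−0.99 ± 0.27, adjusted p = 0.161). Among NF-kB and TLR feedback genes 0 of 27 passed (7 unadjusted), and the endoribonuclease gene Zc3h12a, which limits cytokine messages, came nearest (4.54, 4.41 and 4.40 in WT, 4.93, 5.31 and 5.09 in KO, 0.66 ± 0.14, adjusted p = 0.0769). The TLR4 receptor and adaptor list had 0 of 23 past the threshold (4 unadjusted) and a median of 0.03. In the type I interferon response list 0 of 42 passed (14 unadjusted) and 8 had KO arrays wholly below WT, against 10.2% of all genes. The guanylate-binding protein gene Gbp3 had KO arrays above WT, with 4.20, 3.87 and 3.48 in WT and 4.82, 6.02 and 4.65 in KO (1.32 ± 0.29, adjusted p = 0.0847).

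Hypoxia response genes held 2 rises among 29 measured, against 0.275% of all genes that passed as higher. An unadjusted p under 0.05 was found for 10 of the 29 (13.8% of all genes). KO arrays lay wholly above WT for 7 (6.92% of all genes) and wholly below for 3 (10.2%). Adm, which encodes the vasodilator peptide adrenomedullin, was dim, with 2.22, 2.0 and 2.45 in WT and 3.54, 2.98 and 3.39 in KO, and rose by 1.08 ± 0.16 (adjusted p = 0.0195), passing in 10 of the 12 fits that left out an array. Vegfa had 4.02, 4.41 and 4.36 in WT and 5.06, 5.30 and 4.77 in KO and rose by 0.78 ± 0.14 (adjusted p = 0.039), but did not pass without KO LPS array 2 (adjusted p = 0.0699). The glucose transporter gene Slc2a1 did not pass (0.63 ± 0.17, adjusted p = 0.159). Of 22 glycolysis genes 0 passed (6 at an unadjusted p under 0.05, against 13.8% of all genes). The phosphofructokinase gene Pfkp had 6.27, 6.34 and 6.35 in WT and 5.67, 5.93 and 5.91 in KO (−0.49 ± 0.12, adjusted p = 0.11). In the fatty acid oxidation and activation list Acsl3 was the 1 of 32 to pass, and the list median of 0.16 became 0.01 without KO LPS array 2. Cpt1a, the carnitine acyltransferase that admits long-chain fatty acids to mitochondria, had 3.69, 3.80 and 3.05 in WT and 3.81, 4.54 and 4.04 in KO (0.61 ± 0.25, adjusted p = 0.318, and 0.41 ± 0.25 without array 2). Of 50 oxidative phosphorylation genes and 23 cholesterol synthesis genes 0 passed (12 and 8 unadjusted), with medians of 0.05 and −0.14. The sterol demethylase gene Cyp51 came closest, WT arrays reading 5.78, 5.73 and 5.85 and KO arrays 5.39, 5.12 and 5.30 (−0.52 ± 0.10, adjusted p = 0.0519). Of 23 NRF2 antioxidant genes 0 passed (6 unadjusted) and 6 had KO arrays wholly above WT (6.92% of all genes), among them the pentose phosphate gene Pgd (1.42 ± 0.39, adjusted p = 0.159, and 0.92 ± 0.30 without KO LPS array 2).

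No monocyte, platelet, erythroid, cell cycle, clock or immediate early gene passed in limma with all arrays. The monocyte list had 0 of 25 (12 at an unadjusted p under 0.05, against 13.8% of all genes). It had 9 members wholly above WT (6.92% of all genes) and a median of 0.31. Ly6c1 passed without KO LPS array 2 (1.21 ± 0.18, adjusted p = 0.0153, against 0.96 ± 0.22, adjusted p = 0.0911, with it). The platelet and erythroid lists had 0 of 15 each (5 and 1 unadjusted), with medians of 0.31 and 0.44. The platelet factor gene Pf4 had 4.20, 4.84 and 4.42 in WT and 7.71, 5.61 and 5.18 in KO, highest on KO array 1. The cell cycle (0 of 40, 4 unadjusted), circadian clock (0 of 19, 0 unadjusted) and immediate early and stress lists (0 of 30, 10 unadjusted) had medians of 0.06, −0.04 and −0.14, which became −0.09, 0.03 and −0.06 without KO LPS array 2. In that fit 3 immediate early and stress genes, Hspa1b, Egr2 and Nr4a2, passed as lower. In the migration receptor list Xcr1 was the 1 of 27 to pass.

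The genotype difference after LPS was set against that in unstimulated cells, measured on the other 6 arrays. Of the 76 genes 74 had the same sign there, as did 61.3% of all genes, and 27 of the 76 also passed unstimulated (23 higher and 4 lower), where 43 of all genes passed (0.252%). The unstimulated arrays of the 2 genotypes did not overlap for 66 of the 76, and for 16.9% of all genes. Arrays of the same number within a genotype resembled each other across stimulation, so the other 6 arrays may not be independent of these. Among genes with larger values after LPS, Serpinb2 differed by 2.0 ± 0.36 after LPS and 1.0 ± 0.36 without. Cdk5r1 differed by 0.98 ± 0.16 after LPS and 0.032 ± 0.16 without, the unstimulated WT arrays reading 3.67, 3.43 and 3.66 and the KO arrays 3.83, 3.78 and 3.25. Map3k3 fell after LPS, with unstimulated values of 4.19, 4.33 and 4.17 in WT and 4.33, 4.44 and 4.33 in KO and a difference of 0.14 ± 0.16. The lysosomal gene Cln3 differed by −0.81 ± 0.14 after LPS (adjusted p = 0.026) and 0.049 ± 0.14 without. Tests of the difference between stimulations called 0 genes in limma (0%), with 639 at an unadjusted p under 0.05 (3.74% of genes), and the smallest adjusted p was 0.969.

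**Figure D4:**
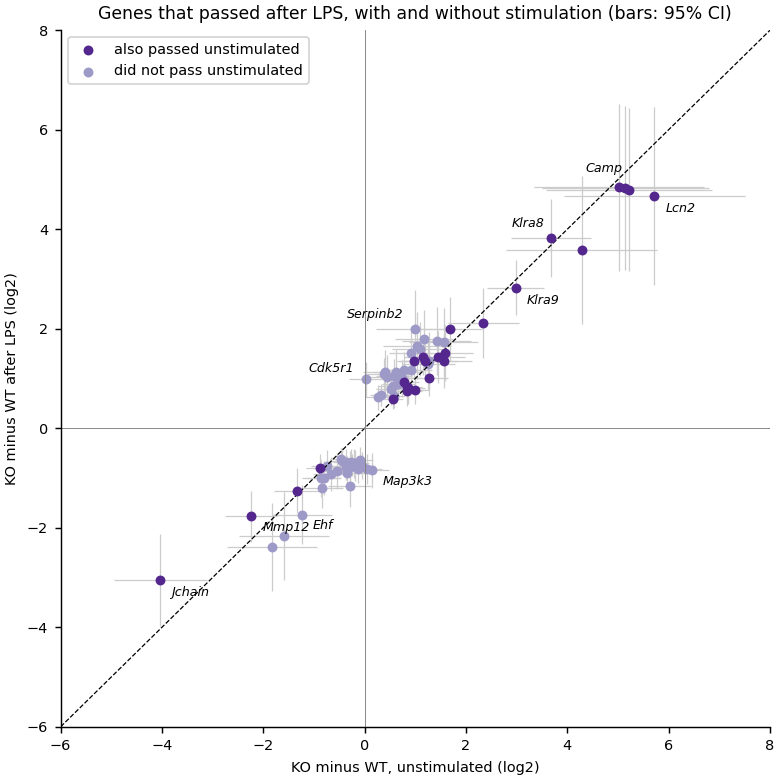
KO minus WT difference of the 76 genes that passed after LPS (vertical axis, log2) against the same difference in unstimulated cells (horizontal axis, log2), with 95% confidence intervals and a dashed line of equal differences. All but 2 of the 76 genes have the same sign on both axes, and Map3k3 and Cdk5r1 lie away from the line.

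KO LPS array 2 changed which genes passed. Leaving it out could not turn the sign of any of the 76, because their KO and WT arrays did not overlap. Of the 76 genes 16 did not pass without array 2, the largest adjusted p among the 76 then being 0.100, and 31 further genes passed. The heat shock gene Hspa1b had 6.15, 6.09 and 6.03 in WT and 5.31, 6.84 and 5.14 in KO on the probe set used, array 2 being the highest of the 6 arrays. Hspa1b fell by 0.87 ± 0.15 without array 2 (adjusted p = 0.0292, against 0.705 with it). On its other probe sets array 2 lay under every WT array, and the differences with all arrays were −0.63 and −0.84. Egr2, an early growth response transcription factor gene, had 7.73, 7.63 and 7.43 in WT and 6.74, 7.47 and 7.04 in KO and fell by 0.71 ± 0.13 when array 2 was left out (adjusted p = 0.0368). In the same fit Nr4a2, an orphan nuclear receptor gene, fell by 0.69 ± 0.14 (adjusted p = 0.0475), and Eif2ak3, which encodes the endoplasmic reticulum stress kinase PERK, by 0.92 ± 0.14 (adjusted p = 0.0169). The syndecan gene Sdc4 also fell without array 2, with KO arrays reading 6.80, 5.34 and 6.95 and WT arrays 7.63, 7.81 and 7.90 and a difference of −0.91 ± 0.13 (adjusted p = 0.0115). Scd1, a desaturase that makes monounsaturated fatty acids, had 6.68, 6.89 and 6.53 in WT and 7.56, 7.30 and 7.76 in KO and, without array 2, rose by 0.97 ± 0.18 (adjusted p = 0.0368). Genes farthest from the other KO LPS arrays on array 2 included those of ribosomal proteins. KO arrays 1, 2 and 3 read 8.75, 6.20 and 8.48 for Rpl13 and 8.56, 6.10 and 8.42 for Rps14. Another Rpl13 probe set went the other way on array 2, the same arrays reading 5.49, 7.12 and 5.67. Among genes that array 2 put far above the mean of arrays 1 and 3 were Ceacam10 at 5.46, 6.98 and 2.35 and the acute phase gene Saa3 at 4.96, 6.82 and 3.09. For both, arrays 1 and 3 also lay apart from each other, array 3 being the lowest, as it was for the neutrophil list. Gapdh by its own probe set had 9.17, 9.05 and 9.12 in WT and 9.35, 8.40 and 9.11 in KO.

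**Figure D5:**
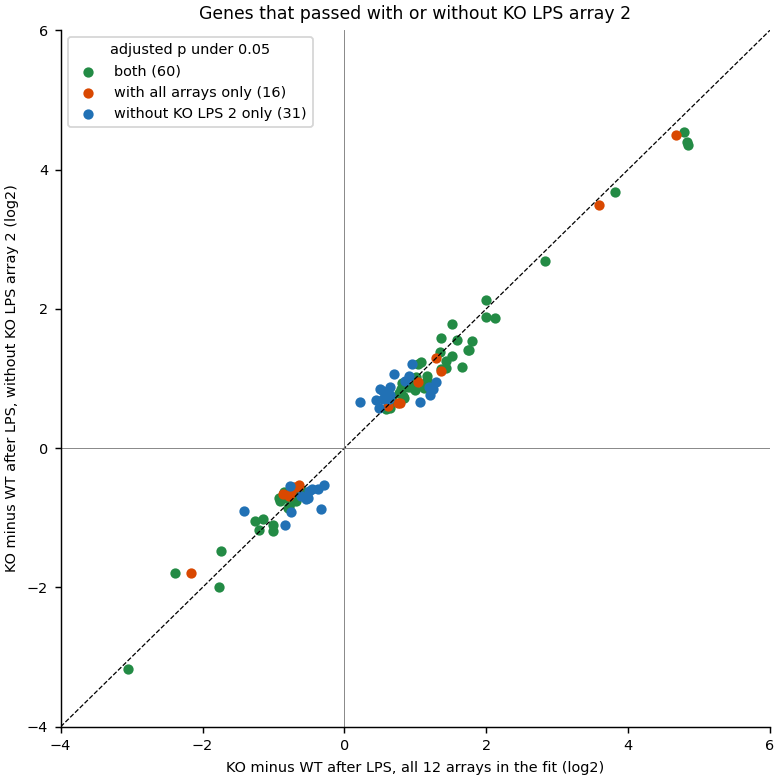
KO minus WT difference after LPS with all 12 arrays (horizontal axis, log2) and without KO LPS array 2 (vertical axis, log2) for every gene that passed in either fit, coloured by the fit in which it passed. Of these genes 60 passed in both, 16 with all arrays and 31 without array 2, and the dashed line marks equal values.

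Where a gene had several probe sets, they mostly shared the direction. Of the 76 genes 35 had another probe set that carries the symbol alone, and 61 of those 63 probe sets had the same sign of difference after LPS. The remaining 41 genes rest on 1 probe set each. Sizes were shared less than signs. Ctnnb1 rose by 0.58 on the probe set used and by 0.078 and 0.20 on its others, or 0.46 and 0.55 without KO LPS array 2. Rab2a rose by 1.36 and, on its others, by 0.11 to 1.09. Vegfa rose by 0.78 and 0.10. Eomes rose by 1.59 and 0.38, and Lztfl1 by 1.51 and, on its others, 0.20 to 0.74. Cd151 rose by 1.43 and, on its others, all dim, by 0.23 to 0.48. Klrb1b kept its size, with 1.35 and, on its others, 1.40 to 1.91.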

How the data were processed

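RNA of splenic DCs was amplified, biotinylated and hybridised to 12 Affymetrix arrays, 3 for each genotype and stimulation. The authors deposited log2 signals per probe set, made with RMA per the submitters' processing notes, which corrects background, normalises between arrays and summarises probes, so absolute amounts are not kept. No version is given. Array medians were 2.65 to 2.72, and the number of arrays limits the precision.

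Of 45141 probe sets, 104 were controls, 15588 had no symbol, 551 had several and 28898 had 1 in the platform annotation, of which 28689 matched RefSeq by gene ID. The probe set of highest mean over the 12 arrays stood for each of 17097 genes, 7180 of which had several. No value was filtered out. Group means over all 12 arrays were fitted with limma 3.58.1 in R 4.3.3 (lmFit, eBayes), giving 8 residual degrees of freedom before moderation, and p-values were adjusted by Benjamini-Hochberg over all genes, with 0.05 as the threshold. P-values measure the spread between these arrays. On simulated data for this comparison over 17097 genes, 27%, 83% and 97% of shifts of 0.5, 1 and 2 log2 units were recovered, and 10 genes without a shift were called. The simulated arrays were independent, with the same spread on each for a given gene. They held no array like KO LPS array 2 and no likeness between same-numbered arrays, so recovery in the real data was not measured.

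Genes and lists were chosen with earlier results of these data known. Named genes were up to 15 rises and 15 falls with separate arrays, per list up to 5 that passed and 3 that did not, up to 8 each way that passed only without KO LPS array 2, up to 5 by the difference between stimulations, up to 6 each way by which array 2 stood apart, and a fixed set including Il6, Tnf and Tgfbr1. Unnamed clones, predicted genes and genes under the median gene in both groups were left out of the rises and falls. DC and T cell markers were added as a check of the labels. Same-numbered arrays of KO LPS and WT LPS correlated at 0.012, 0.090 and 0.189 in their deviations from group means, so numbers were not taken to pair genotypes. Within a genotype, LPS and unstimulated arrays of the same number correlated at 0.284 to 0.440 in KO and 0.230 to 0.422 in WT, and may come from the same mice. Alternatives left out each array, used only the arrays compared, added replicate blocks, array weights, a trended or robust variance, a filter on dim genes and quantile normalisation, and averaged probe sets.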

Additional observations from a re-analysis of the deposited data

Results flagged for a closer look

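Probe sets without a single gene symbol were kept out of the gene comparison. Of 16139 such probe sets 33 passed in KO versus WT after LPS when tested on their own with limma at the same threshold, 15 of them up and 18 down in KO, and 27 passed without KO LPS array 2. They carry no name here, and the test of each rests on the same 12 arrays.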

How the results depend on the processing

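All 76 genes kept their sign in every one of the 23 settings that tested them, the reported one included, but counts moved. Where the gene values were unchanged the sign was fixed beforehand, because the KO and WT arrays of the 76 did not overlap. Quantile normalisation and averaged probe sets changed the values. Leaving out 1 array gave 2 to 358 genes after LPS (2 to 229 higher, 0 to 129 lower) and 5 to 166 unstimulated. The LPS arrays alone gave 0 genes, 0 higher and 0 lower, and without KO LPS array 2 also 49, with 14 lower. A fixed replicate block by array number gave 280 after LPS (188 higher, 92 lower) and 170 unstimulated, and a random replicate block within genotype 84 after LPS. Unstimulated counts were 84 with only those arrays and 148 with array weights. Trend, robust variance, dim filter, quantile normalisation and averaged probe sets gave 68, 70, 71, 74 and 75 after LPS.

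Of the 104 genes given values in the text 6, none of which passed, changed sign in places, and the cause was not tested. Other genes were not counted here. Without KO LPS array 2 and with LPS arrays only, Cd79a was 0.34, E2f7 −0.042, Gapdh 0.12 and Il12a 0.15, and with array weights these were 0.11, −0.012, 0.046 and 0.13. Itgax was −0.078 after quantile normalisation. Over the fits that left out 1 array, Cd3e ran from −0.19 to 0.32, Cd79a from −1.0 to 0.34, E2f7 from −0.042 to 0.15, Gapdh from −0.35 to 0.12, Il12a from −0.20 to 0.15 and Itgax from −0.14 to 0.18.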
